A study of Mus musculus with 3 samples.

Results

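Peaks of Argonaute 2 (Ago2) in the exons of long non-coding RNA (lncRNA) genes were examined in the mouse neuroblastoma line N2A, grown without any stimulus. The peaks came from HITS‐clip, in which ultraviolet light fixes a protein to the RNA it contacts before an antibody against Ago2 recovers the complexes and their RNA is sequenced. There was 1 group of 3 libraries (replicates 1, 2 and 3), with no treatment, no mock pull-down and no input library, so all comparisons are between libraries, strands or annotated features. A peak was counted when its midpoint lay on the same strand in an exon of a GENCODE M21 gene typed lincRNA, antisense, processed_transcript, sense_intronic, bidirectional_promoter_lncRNA or macro_lncRNA, and in no exon of a protein-coding gene on that strand. Malat1, Neat1, Meg3, Rian and Mirg were left out. Of 2039384 peaks in the whole table, 7455 met this rule, with 2629 in replicate 1, 2018 in replicate 2 and 2808 in replicate 3. They were 0.371 ± 0.0335% of the peaks on the primary chromosomes (mean ± SD, n = 3), and the exons in which they could fall, 15.8 Mb, were 0.289% of the length of both strands.

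LncRNAs are transcripts without a long open reading frame, made by RNA polymerase II and often spliced. Some stay on chromatin, such as Xist, which coats the inactive X chromosome. Some are the precursors from which microRNAs (miRNAs) or small nucleolar RNAs (snoRNAs) are cut, and a few reach the cytoplasm, where an Ago2 complex guided by a miRNA can pair with them as it does with the 3′UTR of an mRNA. Ago2 holds the miRNA so that its seed, bases 2 to 8, reads the target.

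The sequences on which most of the single-site results rest are given first. Stretches of exon covered by peaks in all 3 libraries held 14 matches to the seed of a listed miRNA followed by an A (8mer sites). Of these, 7 lay outside annotated small RNA genes and under peaks of at most 1000 nt. The mature miRNAs to which they belong, with the seed in capitals, are these.
miR-181a-5p: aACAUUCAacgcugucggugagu
miR-132-3p: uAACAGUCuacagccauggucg
miR-27b-3p: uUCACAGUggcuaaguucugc
miR-142a-5p: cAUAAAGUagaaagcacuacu
miR-221-3p: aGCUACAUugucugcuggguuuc
miR-30a-5p: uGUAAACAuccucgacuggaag
miR-15a-5p: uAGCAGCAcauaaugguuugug

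The stretches that hold their 8mer sites follow, 5′ to 3′ along the RNA in DNA letters, with the 8mer in capitals and coordinates in GRCm38. They are shown because all libraries had a peak of at most 1000 nt over an 8mer there.
1700020I14Rik, exon 3, chr2:119603579-119603713, plus strand, miR-181a-5p: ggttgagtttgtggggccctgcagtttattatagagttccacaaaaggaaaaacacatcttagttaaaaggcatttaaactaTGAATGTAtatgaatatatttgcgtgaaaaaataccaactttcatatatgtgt
1810026B05Rik, chr7:73544772-73544844, minus strand, miR-132-3p: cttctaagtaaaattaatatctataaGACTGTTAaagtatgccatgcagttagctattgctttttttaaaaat
Xist, exon 7, chrX:103463922-103464026, minus strand, miR-27b-3p: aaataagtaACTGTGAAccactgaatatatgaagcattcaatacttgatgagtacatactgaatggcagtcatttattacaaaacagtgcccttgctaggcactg
Xist, exon 1, chrX:103475413-103475509, minus strand, miR-142a-5p: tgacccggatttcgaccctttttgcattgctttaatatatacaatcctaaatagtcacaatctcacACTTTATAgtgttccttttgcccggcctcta
Snhg12, chr4:132309545-132309634, plus strand, miR-221-3p: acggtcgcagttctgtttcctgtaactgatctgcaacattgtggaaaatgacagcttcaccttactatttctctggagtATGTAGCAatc
Gm42664, chr3:119744747-119744792, minus strand, miR-30a-5p: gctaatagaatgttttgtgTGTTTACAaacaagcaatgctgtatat
Gm13115, exon 1, chr4:153907419-153907497, plus strand, miR-15a-5p: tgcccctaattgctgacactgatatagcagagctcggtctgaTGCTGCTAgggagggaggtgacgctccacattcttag

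A pair of miRNA host stretches is shown because their peaks lay on the hairpin, with the mature arms that RefSeq (GRCm38.p6) gives in capitals. In Mir155hg both arms of miR-155 were inside the stretch. In Mir17hg the stretch held miR-19a-3p.
Mir155hg, chr16:84714111-84714235, plus strand: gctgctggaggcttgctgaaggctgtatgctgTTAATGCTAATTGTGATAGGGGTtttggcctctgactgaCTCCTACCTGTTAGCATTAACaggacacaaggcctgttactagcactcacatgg
Mir17hg, chr14:115043982-115044111, plus strand: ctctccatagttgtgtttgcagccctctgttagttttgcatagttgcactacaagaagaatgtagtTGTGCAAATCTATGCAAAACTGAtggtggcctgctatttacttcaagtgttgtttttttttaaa

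The libraries differed among themselves. Replicate 1 had 553.5 peaks per Mb of protein-coding 3′UTR, against 1733 in replicate 2 and 1740 in replicate 3, while its density in lncRNA exons, 166.8 peaks per Mb, was above that of replicate 2 and below the 178.1 of replicate 3 (157.6 ± 26.3, mean ± SD). No counts of reads accompany the intervals, so depth is not known. Of 16 neuroblastoma and neuronal marker genes, 9 had a 3′UTR peak in every library, with Elavl4 highest in replicate 2 at 5, 22 and 19 peaks and Gata3 at 1, 2 and 5. Th had none in any library, and Dcx, Dbh and Chga had 1, 1 and 2 in replicate 3 and none in the others. Of 10 marker genes of other cell types, 3 did, namely Cx3cr1 at 1, 3 and 6, Ptprc at 1, 3 and 3 and Mbp at 4, 2 and 9, and Aif1 and Mog had none. In each replicate the neuronal list held more peaks, 29 against 9, 80 against 10 and 107 against 20. The lists differ in size and the share over all protein-coding genes was not counted, so these counts are a description.

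Peaks lay more often on the strand of the lncRNA where no gene was annotated opposite, and there the ratio was higher for wider peaks. Across all eligible exons, peaks of all widths were about as frequent on the opposite strand (same over opposite 1.11, 0.928 and 0.918). For peaks of 86 to 200 nt over all exons the ratio was 1.45, 0.867 and 0.889, so in replicates 2 and 3 more of them lay opposite to the lncRNA. In the 10.9 Mb of exon with no annotated gene on the other strand, the ratio was 1.42, 1.85 and 1.85 in replicates 1, 2 and 3. For peaks of 86 to 200 nt there it was 3.32, 7.46 and 5.72, and for peaks of at most 85 nt it was 1.11, 1.21 and 1.16. The lowest ratio of the wider class thus lay above the highest of the narrow one. The narrow class made up 57.5 ± 7.0% of the lncRNA exon peaks and the 86 to 200 nt class 37.3 ± 6.81%, against 25.6 ± 11.4% and 72.2 ± 11.2% of 3′UTR peaks and 61.9 ± 9.38% and 32.8 ± 9.33% of all peaks. Peaks over 1000 nt were 3.53 ± 0.980% and reached 32066 nt in replicate 2.

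Exons of lncRNA genes held more peaks per Mb than their introns and fewer than the 3′UTRs or coding sequence of mRNAs. The density in exons over that in introns of the same class of genes was 1.31, 1.72 and 1.63 for all widths and 1.95, 3.73 and 2.93 for peaks of 86 to 200 nt. Against 3′UTRs the exons had 0.301, 0.0738 and 0.102 times the density, and against coding sequence 0.453, 0.133 and 0.151 times. All libraries had the same direction in each of these ratios, and the exact two-sided sign-flip permutation test gave p = 0.25 for each, which is the smallest value 3 libraries allow, so no such comparison can pass 0.05 here. In introns of lncRNA genes, peaks of 86 to 200 nt had a same over opposite strand ratio of 0.923, 0.486 and 0.533 over all introns. Where no gene lay opposite it was 1.61, 1.55 and 1.70, above 1 in each library. These values lay below the lowest one of exons without a gene opposite, 3.32. All intron values left out introns inside a protein-coding gene on the same strand, while exons there were kept. At this width, exons without a gene opposite had ratios of 4.25, 11.7 and 40.2 in sense_intronic genes and 2.51, 5.66 and 3.9 in lincRNA genes. The part of this difference in choice was not tested.

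Peaks in lncRNA exons were met again in another library less often than 3′UTR peaks and more often than intron peaks. A peak was counted as met when it shared at least 1 nt with a same-strand peak from a different library. This held for 27.5%, 36.0% and 32.4% of the lncRNA exon peaks of replicates 1, 2 and 3, for 74.0%, 74.3% and 72.2% of 3′UTR peaks and for 14.9%, 21.4% and 18.4% of lncRNA intron peaks. The difference from 3′UTRs was -41.6 ± 4.40 percentage points and from introns 13.7 ± 1.08 (exact sign-flip permutation p = 0.25 for each, n = 3). With peaks of 86 to 200 nt, 45.8 ± 5.31% in lncRNA exons were met, and 16.3 ± 3.46% of those on the opposite strand of exons without a gene there.

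**Figure D1:**
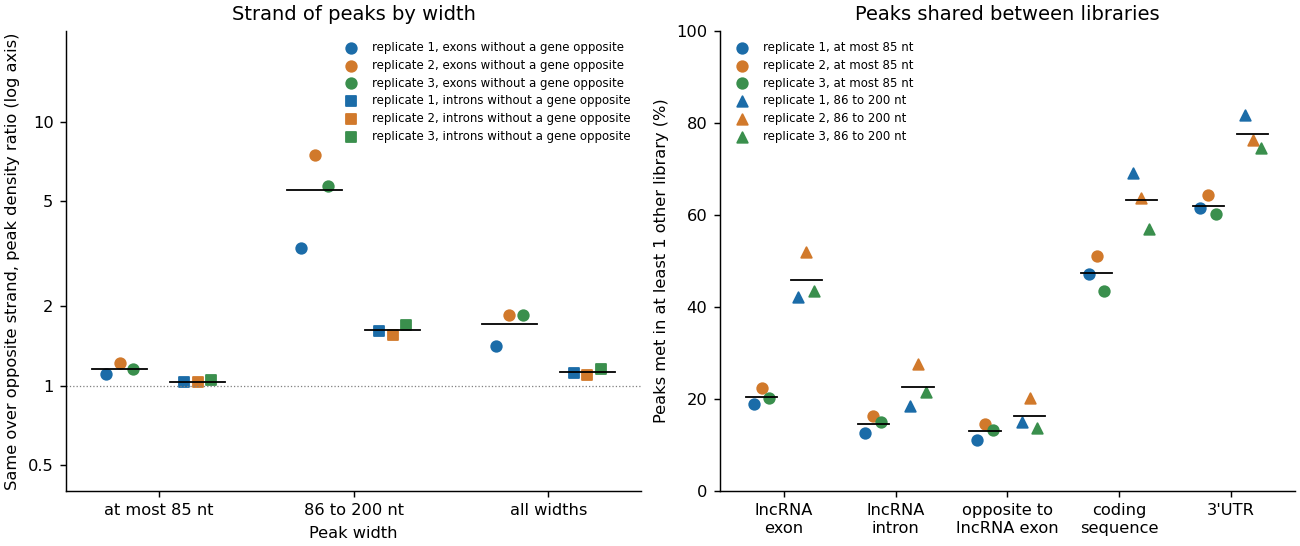
Left, the density of peaks on the strand of the lncRNA over that on the opposite strand (log axis), by peak width, for exons without a gene opposite (circles) and lncRNA introns without one (squares). Right, the percentage of peaks met in at least 1 other library, for peaks of at most 85 nt (circles) and 86 to 200 nt (triangles). Points are the 3 libraries and black lines their means. The exon ratio for 86 to 200 nt, from 3.32 to 7.46, stands above the intron ratio, from 1.55 to 1.70, and the share met in lncRNA exons lies between introns and 3′UTRs.

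Most lncRNA genes had no peak. Of 10098 with eligible exon, 3336 had a peak in at least 1 library and 259 in all 3, which is 2.56% of the genes. On the opposite strand of the same exons 301 genes had one in all libraries. Restricted to exons without a gene opposite, the counts were 188 on the same strand and 89 on the opposite one. With peaks of 86 to 200 nt they were 75 and 4. Over all exons 89 genes had a peak of that width in every library, or 0.881%, and 96 had one on the opposite strand. Genes with a peak in all libraries had a median of 3476 nt of exon, the others 1017 nt. Of the 2628 genes with at least 2000 nt, 208 had a peak in all libraries (7.91%).

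Peaks of 86 to 200 nt were gathered in few genes. The 10 genes with the most held 22.6% of them, 631 on the same strand against 30 on the opposite one. The top 50 held 46.5%, with 1298 against 55. Without these 50 genes, which were ranked by same-strand peaks, the same over opposite ratio in exons without a gene opposite was 1.85, 3.59 and 3.38 in replicates 1, 2 and 3, where it had been 3.32, 7.46 and 5.72 with them. By gene type, the 57 processed_transcript genes with a peak in all libraries came out of 772, the 109 lincRNA genes out of 5849, the 57 antisense genes out of 2958 and the 27 sense_intronic genes out of 327. On the opposite strand the counts were 50 for processed_transcript, 110 for lincRNA, 134 for antisense and 5 for sense_intronic genes, so antisense genes had more on the opposite strand and lincRNA genes about as many.

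Of 73 genes of the lncRNA lists that could be matched and had eligible exon, 63 had a peak in at least 1 library and 31 in all 3 (42.5%, beside 2.56% over all lncRNA genes). Since the listed genes are long, the share among those with at least 2000 nt of exon is the closer comparison, 26 of 54 (48.1%, beside 7.91%). The lists hold well-known, often abundant lncRNAs, and were written with earlier results of these peaks known, so the shares describe them and test nothing. Over the lists there were 1201 peaks on the same strand and 222 on the opposite one, and 842 against 60 for peaks of 86 to 200 nt. RNA levels were not measured here, so a lack of peaks cannot be told apart from a lack of the RNA.

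**Figure D2:**
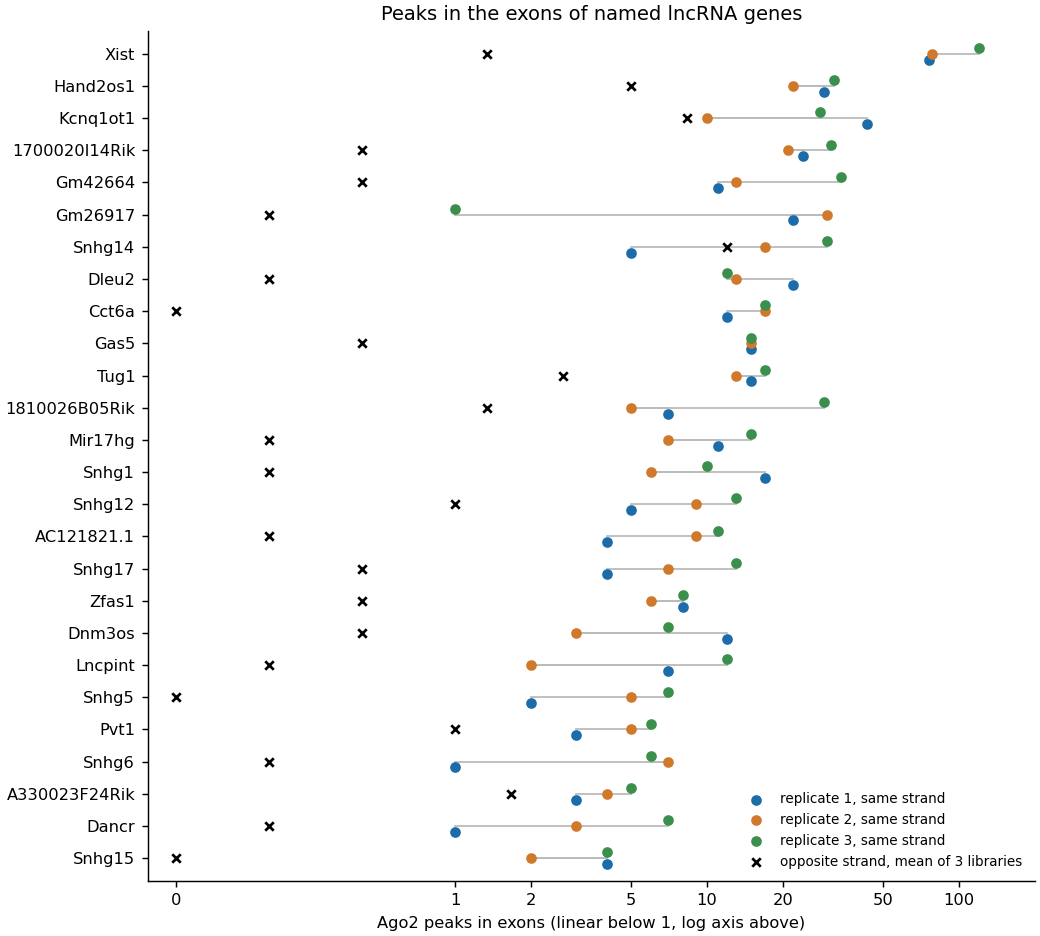
Number of Ago2 peaks in the exons of the 26 named lncRNA genes with the most peaks among those with a peak in every library (horizontal axis, linear below 1 and log above). Coloured points are the 3 libraries on the strand of the gene, crosses the mean of the 3 libraries on the opposite strand. Xist stands highest at 76, 78 and 120 peaks, and the libraries of Gm26917 run from 1 to 30.

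Among the lncRNAs of X inactivation and imprinting, 4 of 11 had a peak in all libraries, as did 4 on the opposite strand, and Xist held most of the peaks. Xist, on the minus strand of chromosome X (103460366 to 103483254), had 76, 78 and 120 peaks in replicates 1, 2 and 3, which covered 36.9%, 37.3% and 61.8% of its 17946 nt of exon. The opposite strand of the same exons had 4 peaks in all, although Tsix, the antisense RNA that restrains Xist, is annotated over all of it. Of the 274 Xist peaks 231 were 86 to 200 nt wide, and none of those on the opposite strand was. The peaks lay along the whole RNA. Cut into 10 equal parts, the transcript had between 15 and 41 peaks per part over the libraries. Exon 1 held 35, 40 and 62 of them and exon 7, the last, 40, 36 and 56. A total of 2264 nt in 30 stretches, 24 to 179 nt long, was covered in every library. Only 2 of these stretches held an 8mer of a listed miRNA, printed above.

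Kcnq1ot1, the single-exon RNA that silences imprinted neighbours, had 43, 10 and 28 peaks over 93092 nt, 0.29 peaks per kb, against 5.09 for Xist. The opposite strand had 25 in all, and for peaks of 86 to 200 nt the counts were 41 against 4. No stretch of Kcnq1ot1 was covered in all libraries. Snhg14, the long host that also runs antisense to Ube3a, had 5, 17 and 30 peaks against 36 on the opposite strand. Jpx, an activator of Xist, had 3, 1 and 2. H19 had a peak in replicate 2 only, and Tsix had 1, 1 and 0, against 20 on the opposite strand in all.

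**Figure D3:**
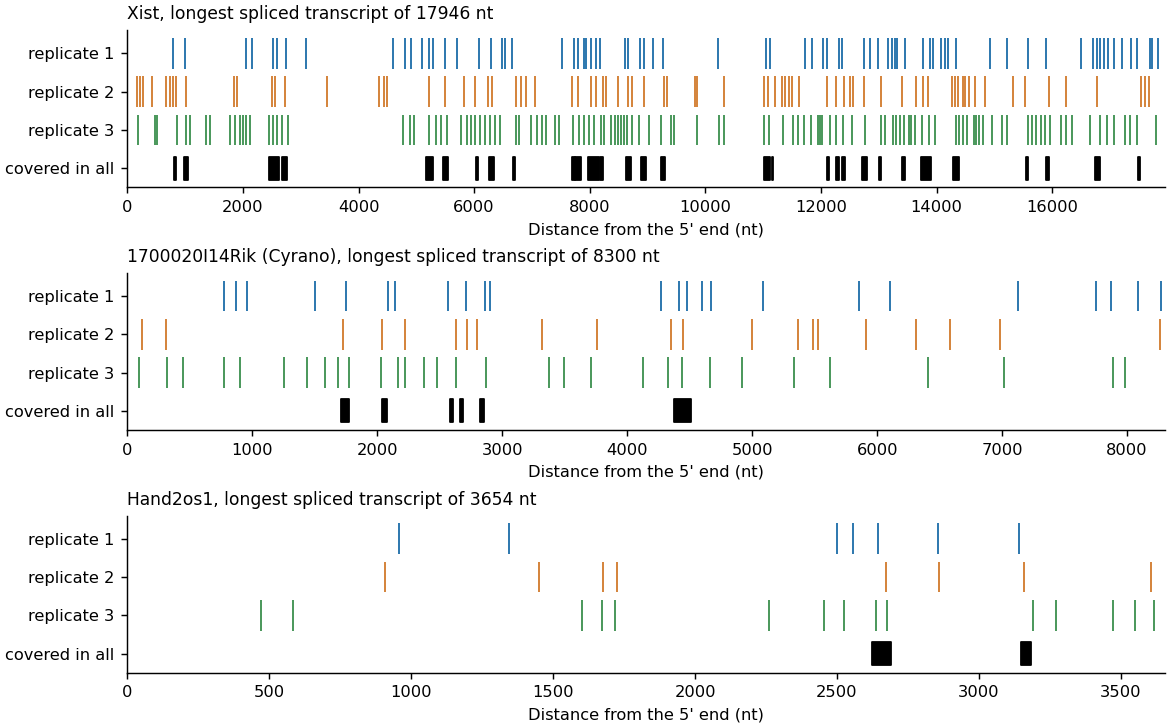
Positions of peak midpoints (coloured ticks, 1 row per library) and of stretches covered in all libraries (black bars) along the longest spliced transcript of Xist, 1700020I14Rik and Hand2os1, in nt from the 5′ end. Xist peaks run along its whole length, with most in exons 1 and 7, while in 1700020I14Rik the longest common stretch of 135 nt lies 4377 to 4511 nt from the start. Of the Hand2os1 peaks, 22, 14 and 17 lie in exons off the transcript drawn and are not shown, nor are its common stretches of 97 and 49 nt.

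Of 17 lncRNAs known for dealings with miRNAs, 10 had a peak in all libraries, as did 3 on the opposite strand. 1700020I14Rik, known as Cyrano, which binds miR-7 at a conserved site and sets off its decay, had 24, 21 and 31 peaks over 8306 nt, and 2 on the opposite strand in all libraries together. All but 4 of these peaks lay in exon 3, the last. Of them 59 were 86 to 200 nt wide. The RNA has 2 matches to the seed of miR-7a-5p, both 8mers, and they are shown with the match to bases 2 to 8 in capitals.
chr2:119599964-119599970, plus strand: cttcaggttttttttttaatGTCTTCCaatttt
chr2:119602154-119602160, plus strand: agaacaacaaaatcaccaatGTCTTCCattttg

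The first lay under a peak in replicates 1 and 3 and not in replicate 2, where the nearest midpoint was 453 nt away along the spliced RNA. The other lay under no peak, with midpoints at 49, 156 and 83 nt. Upstream of this other match, the printed bases also pair with the 3′ part of miR-7a-5p, unlike those of the first. The 6 stretches covered in all libraries came to 317 nt, and the longest, printed above, held the miR-181a-5p site. Neither miR-7a-5p match of this RNA was covered in all libraries.

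Other RNAs of this list had fewer peaks. Tug1, a nuclear and cytoplasmic lncRNA, had 15, 13 and 17, with 33 of 86 to 200 nt and 1 such on the opposite strand. Dleu2, the host of miR-15a and miR-16-1, had 22, 13 and 12 against 1 on the opposite strand. 1810026B05Rik, known as Chaserr, which holds down the neighbouring Chd2, had 7, 5 and 29, so replicate 3 stood far above the others, and its common stretch of 73 nt held the miR-132-3p site. Lncpint had 7, 2 and 12, Pvt1 3, 5 and 6 and Dancr 1, 3 and 7. Norad, annotated as 2900097C17Rik and known for binding Pumilio proteins, had 1, 0 and 1. Miat had 1, 0 and 2, against 4 on the opposite strand in all.

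The snoRNA hosts are processed RNAs whose introns carry snoRNAs, the guides of rRNA modification. Of 18, 12 had a peak in all libraries, and 1 on the opposite strand. Gas5 had 15 peaks in each library, covering 42.5%, 51.0% and 61.3% of its 3760 nt of exon, with 2 on the opposite strand in all. GENCODE joins retained introns to its exons, and 30 of the 45 Gas5 peaks overlapped a small RNA gene. Of its 9 common stretches 8 did. Snhg1 had 17, 6 and 10 peaks, of which 18 overlapped a small RNA gene, and Snhg12 had 5, 9 and 13, of which 14 did. Zfas1 had 8, 6 and 8 with 7 over a small RNA gene. In contrast none of the peaks of Snhg5 (2, 5 and 7), Snhg6 (1, 7 and 6) or Snhg15 (4, 2 and 4) overlapped one. Snhg17 had 4, 7 and 13 peaks, Snhg20 3, 1 and 5 and Snhg8 1, 3 and 3. The Snhg12 stretch printed above overlapped Snora16a in its 5′ part, and its miR-221-3p site lay outside that gene. The peaks over that site were 90, 899 and 411 nt wide in replicates 1, 2 and 3. Rmrp, the RNA of a ribonuclease complex, had 3, 2 and 1 peaks, and 92.9% of its 281 nt was covered in every library.

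Of 16 miRNA hosts all had a peak in some library and 7 in every one, where 2 had one in every library on the opposite strand. Mir17hg, the host of the miR-17 to miR-92a cluster, had 11, 7 and 15 peaks against 1 on the opposite strand in all, and 21 of the 33 overlapped a small RNA gene. Its 4 common stretches, 129 to 130 nt long, each overlapped a hairpin, and Mir17, Mir18, Mir19a, Mir20a and Mir19b-1 were each under a peak in every library. The sixth hairpin, Mir92-1, had 0, 0 and 2 peaks. Mir155hg had 2, 2 and 3 peaks, of which 5 overlapped the hairpin of miR-155. A330023F24Rik, the host of miR-29c, had 3, 4 and 5, and C130071C03Rik, a host of miR-9, 2, 2 and 3.

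**Figure D4:**
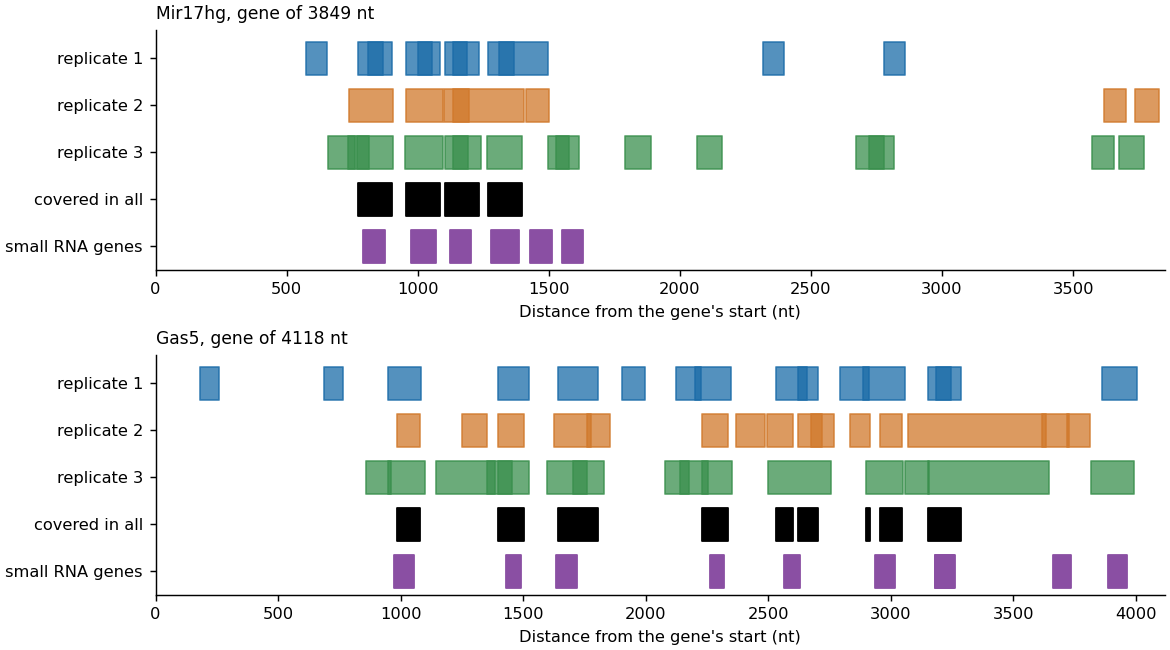
Peaks of each library (coloured bars), stretches covered in all libraries (black) and annotated small RNA genes (purple) along Mir17hg and Gas5, in nt from the gene's start, introns included. All 4 common stretches of Mir17hg overlap a hairpin, and 8 of the 9 of Gas5 overlap a small RNA gene.

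Over all lncRNAs, 3.42 ± 0.233% of the peaks overlapped a small RNA gene. Of 74 miRNA genes with their centre in an eligible exon, 21 were under such a peak in every library, and of 54 snoRNA genes 22, but of 44 misc_RNA genes 0. Overlapping entries of a locus were counted separately, as for Snord80 and for Mir3068, which is annotated both as miRNA and as snoRNA. The miRNAs under a peak in every library included Mir137, Mir219a-1, Mirlet7d, Mir191, Mir30d, Mir31 and Mir29c. They also included Mir223, known from myeloid cells, with 1 peak in each library in an exon of F630028O10Rik. The myeloid markers Cx3cr1 and Ptprc had 3′UTR peaks in each library (above) and Aif1 had none, and their part in the Mir223 peaks was not tested.

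Of 19 neural lncRNAs 4 had a peak in all libraries, against 4 on the opposite strand. Hand2os1, transcribed away from Hand2, a transcription factor of the sympathetic lineage, had 29, 22 and 32 peaks over 12840 nt, with 57 of 86 to 200 nt against 8 on the opposite strand. In 4 stretches 247 nt were covered in all libraries. The longest of them, chr8:57307095-57307191 on the minus strand, held no 8mer of a listed miRNA, and it is shown as the main common stretch of the neural list.
Hand2os1: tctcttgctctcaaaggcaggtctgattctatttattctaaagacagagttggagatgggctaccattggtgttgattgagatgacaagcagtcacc

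Pantr1 had 1, 1 and 3 peaks and 2610307P16Rik 1, 2 and 2. No peak was found in any library for Dlx6os1, Otx2os1, Pantr2 or A330008L17Rik, RNAs of forebrain or other neural lineages. Rmst had 2, 0 and 0, against 5 on the opposite strand in all, and Sox2ot 2, 1 and 0, against 8. In the chromatin list Dnm3os had 12, 3 and 7 and Firre 3, 1 and 3, while Fendrr and Trp53cor1 had none.

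The remaining genes were named for the exon length covered in every library. In all, 15587 nt in 176 stretches of 95 genes were covered, 0.0989% of the eligible exon, with a median stretch of 81 nt. Part of it came from very wide peaks. Gm34788 (978 nt) and Gm534 (959 nt) had no peak midpoint in their exons in any library and were covered by peaks over 1000 nt, which also covered the 3 8mer sites found in Gm534. With peaks of at most 1000 nt, 10744 nt in 146 stretches of 71 genes remained. Gm26917, a model that overlaps ribosomal RNA sequence, had 22, 30 and 1 peaks and 1053 nt in common, of which none was left with peaks of at most 1000 nt, with all but 1 of its 53 peaks in replicates 1 and 2. Gm42664, a sense_intronic model lying wholly in or just downstream of a protein-coding gene on its strand, had 11, 13 and 34 peaks in 3239 nt. Cct6a, whose symbol is that of a chaperonin subunit and whose GENCODE type is processed_transcript, had 12, 17 and 17 with none on the opposite strand. The others were 4833445I07Rik, the host of miR-191, with 3, 1 and 2 peaks, AC121821.1 with 4, 9 and 11, and Gm20732, the host of miR-30d, with 2, 1 and 1.

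Over peaks of all widths, seed matches of the listed miRNAs differed little in density between lncRNA peaks and the rest of the same exons, and the libraries disagreed in sign for most miRNAs. For 32 listed miRNAs found in RefSeq, the log2 ratio of the density inside peaks over that outside (pseudocount 0.5) had a median of 0.09, 0.20 and 0.10 in replicates 1, 2 and 3, where the median over all 7-mers was 0.04, 0.04 and 0.04. Of the 32, 7 were above 0 in all libraries and 3 below 0 in all, while of all 7-mers 19.7% were above and 12.8% below in all, so these counts are near the background and the miRNAs below are named as a description. The former were miR-25-3p (0.49 ± 0.16, SD), miR-26a-5p (0.47 ± 0.31), miR-155-5p (0.46 ± 0.19), miR-153-3p (0.42 ± 0.18), miR-181a-5p (0.40 ± 0.05), miR-130a-3p (0.38 ± 0.34) and miR-103-3p (0.21 ± 0.15). The latter were miR-7a-5p (-0.46 ± 0.30), miR-24-3p (-0.40 ± 0.30) and miR-128-3p (-0.28 ± 0.24). In the common stretches the ratio of miR-7a-5p had the other sign, 1.95, from 5 matches inside and 33 outside, 3 of the 5 under peaks over 1000 nt. miR-21a-5p, the miRNA the study turned to, had 0.13 ± 0.51, with 12, 21 and 23 matches inside peaks and 238, 157 and 192 outside. In the common stretches it had no match.

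Summed over the listed seeds, the log2 ratio was 0.06 ± 0.06 (exact sign-flip permutation p = 0.25, n = 3), with 877, 982 and 1089 matches inside. With peaks of 86 to 200 nt it was 0.13, 0.60 and 0.10, with 200, 275 and 319 matches, so replicate 2 stood apart. The median over the listed miRNAs at this width was 0.32, 0.69 and 0.25, above the 0.12, 0.14 and 0.05 of all 7-mers in each library. The peaks of this width held 58.5 ± 1.14% A or T against 55.7 ± 0.410% in the rest of the exons. Peaks of all widths held 55.1 ± 0.121% against 54.6 ± 0.094%. Set against 7-mers with the same number of A or T, over peaks of all widths, 20 of the 32 listed miRNAs were above the median. For peaks of 86 to 200 nt the part of base content was not tested.

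**Figure D5:**
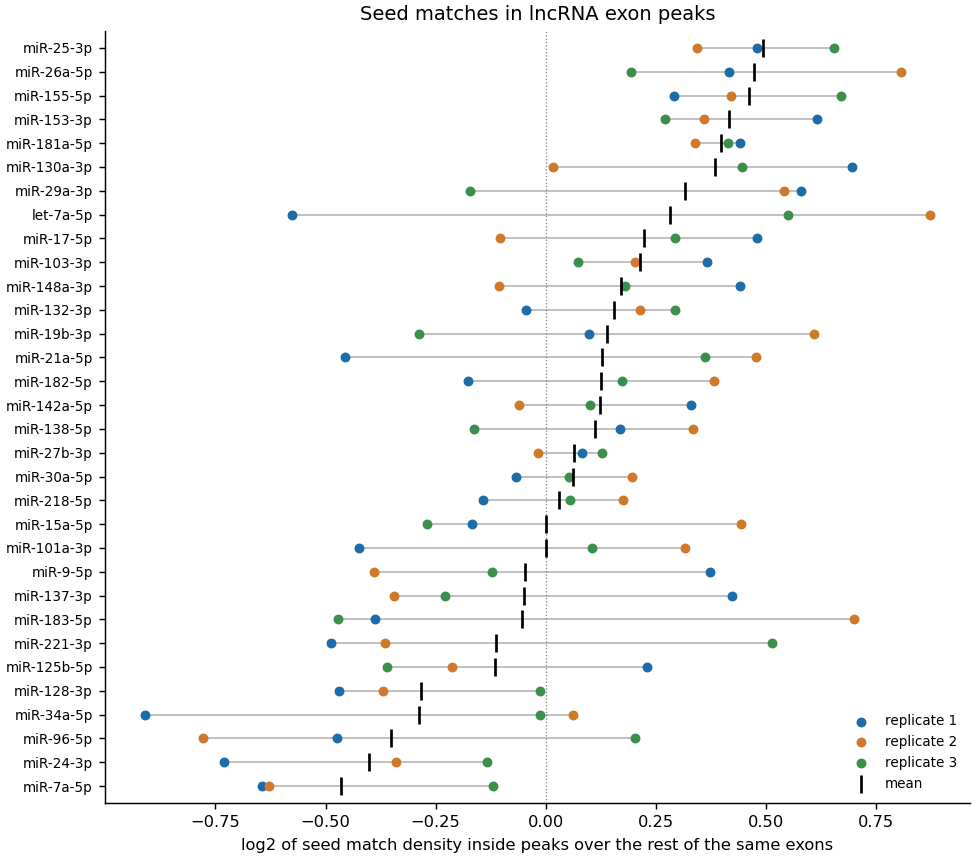
The log2 ratio of seed match density inside lncRNA exon peaks over the rest of the same exons for each of 32 miRNAs, ordered by the mean (black mark), with a coloured point per library. Most rows cross 0, and miR-25-3p stands highest at 0.49 and miR-7a-5p lowest at -0.46.

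Along the spliced RNA the peaks were spread evenly. On the longest transcript of each gene, each of 10 equal parts held between 9.31% and 10.7% of the peaks (means of 3 libraries), and the last exon of spliced transcripts held 65.6 ± 1.80% of the peaks and 63.3% of the length. The last part held 11.6 ± 1.19% of the peaks of 86 to 200 nt and the first part 8.68 ± 2.54%. Repeats, as masked in the genome sequence, held 16.9 ± 1.77% of the midpoints and 22.9% of the exon length, against 14.8 ± 1.37% and 19% in 3′UTRs and 24.2 ± 1.40% and 32.5% in lncRNA introns. For peaks of 86 to 200 nt the share was 22.5 ± 1.67%. Of the lncRNA exon peaks 13.5 ± 2.78% lay inside a protein-coding gene on the same strand or within 5 kb downstream of one.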

How the data were processed

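Ago2 HITS‐clip libraries came from 3 samples of N2A cells, per the labels crosslinked once at 400 and then at 200 mJ per square cm. The samples form 1 group. Nothing states whether they were separate cultures, so the SD may be technical. The submitters' processing notes name the build mm10 and FastQC, cutadapt and STAR. The peak caller and its threshold are not given in the sources used here. The authors deposited peaks with start, stop, strand, sample and a score of no stated unit, which was 60 for 97.8% of the lncRNA exon peaks and was not used. Read depth is unknown, and 0 further columns hold values per sample. Starts count from 0, and an outer 30 nt at either end was treated as padding, an assumption based on same-strand neighbours never sharing over 60 nt within 1 library.

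Peaks were used as deposited on the 21 primary chromosomes, with GENCODE M21 and GRCm38.p6. Densities in lncRNA exons were taken per Mb outside protein-coding exons of that strand. Those in lncRNA introns were taken per Mb outside all exons and protein-coding genes of that strand. Those in 3′UTRs and coding sequence were taken per Mb of these features. A common stretch was at least 8 nt covered in all libraries. Values are means ± SD over libraries, tested by exact two-sided sign-flip permutation. A 7mer matches bases 2 to 8 of a miRNA. Genes were named if they stood on a written list with a peak in all libraries, were among the 15 with the longest common length, or were among the 10 with the largest common share with at least 500 nt of exon. Further listed genes were named after their values were seen. Of 34 listed miRNAs 32 were found in RefSeq. The members, lists and tests were chosen with earlier results of these data known. Alternatives were width, gene type, distance from protein-coding genes, small RNA genes, overlap, trimming and each library left out. Scripts, tested on simulated data, ran under Python 3.11.15 with scipy 1.17.1, numpy 2.4.6, matplotlib 3.10.9 and pandas 2.3.3.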

Additional observations from a re-analysis of the deposited data

How the results depend on the processing

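With peaks of 86 to 200 nt only, the mean number of lncRNA exon peaks per library fell to 929.7 from 2485, the exon over intron density ratio rose to 2.87 from 1.55, the share met in another library to 45.8% from 32%, and the median seed log2 ratio to 0.42 from 0.13 (all 7-mers 0.10 and 0.04), while the genes with a peak in all libraries went to 89 from 259 and the commonly covered length to 5386 from 15587 nt. With lincRNA genes only these were 1183 peaks, 109 genes and 8904 nt, and the same over opposite strand ratio was 1.13 in place of 0.986. That ratio was 1.71 in exons with no gene on the other strand and 5.50 there with peaks of 86 to 200 nt, the latter chosen after seeing the data. Trimming peaks by 30 nt on each side gave a share met of 24% and a median seed ratio of 0.059, below the 0.069 of all 7-mers and negative in replicate 1, at -0.064. Requiring at least 2 libraries gave 1012 genes.

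Leaving out a library leaves fewer libraries to be met in: the share met was between 18.1% and 24.5%, the genes between 457 and 577 and the common length between 45879 and 56682 nt. Without replicate 1 the density in lncRNA exons over that in 3′UTRs was 0.0881, where the mean of all libraries was 0.159. Over 8 results and 64 alternative values, 40 stayed within 1 SD or 1.5 times and 24 moved, with the strand ratio passing from below 1 to above 1 as given. Peaks of at most 1000 nt, without Xist, and without the rRNA-overlapping models were added after seeing the data and gave 10744, 13323 and 14534 nt in common. No paired analysis was possible because there is only 1 group, so no groups share replicate numbers, while comparisons of features were made within each library. Depth is unknown, so its part in the number of peaks and in how often they were met was not tested.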

Other observations

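Of all lncRNA genes, 21 had at least 5 peaks in each library, where 6 had as many on the opposite strand. The 6 described here are those of the 21 not named before, and were singled out after their values were seen. C130073E24Rik had 42, 19 and 8 peaks in replicates 1, 2 and 3 over 19000 nt of exon, with 45 of 86 to 200 nt and none such on the opposite strand. Rab10os, annotated antisense to a small GTPase gene, had 5, 22 and 14, with 33 of 86 to 200 nt against 2. The processed transcript gene 3110039I08Rik had 9, 10 and 13, Gm37494 13, 13 and 6 over 16543 nt, and 6720427I07Rik, in which Mirlet7d lies, 10, 5 and 6. Gm4117 had 11, 6 and 5 over 52997 nt with 15 on the opposite strand in all. The order of the libraries was not the same in these genes: replicate 1 had the most peaks in C130073E24Rik and the fewest in Rab10os.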
